A study of Oryzias latipes with 27 samples.

Results

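The miR-15 and miR-16 families were followed in the gonads of medaka (Oryzias latipes) from 10 to 120 days post hatch. Members were all mature miRNAs named miR-15, miR-16, miR-457 or miR-497, with any letter, copy number or arm. This gave 11 members among the 437 miRNAs in the count tables. Of them 6 belong to miR-15 (miR-15a-2, miR-15b-1 and miR-15c, each with a 5p and a 3p arm), 4 to miR-16 (miR-16a and miR-16c, both arms) and 1 to miR-457 (miR-457a-5p), while miR-497 had 0 rows. The mammalian relatives miR-195, miR-322, miR-424 and miR-503, which share the seed, had 0 rows as well. Rows were taken by name only, not by level, but the families were chosen with earlier results of these data known.

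Small RNA of 3 kinds of gonad was sequenced at each of the stages D10, D30 and D120 (days after hatching), with 3 biological replicates in each of the 9 groups. MT_Fe_Ov is the ovary of XY fish in which the Y-linked gene DMY was disrupted with TALEN nucleases, a heritable line whose XY carriers develop as females. WT_Fe_Ov stands for ovaries of XX females and WT_Ma_Te for testes of XY males, both wild type. DMY directs male development in medaka. The genotypes were not checked against the DMY transcript, which small RNA counts do not measure. The sample titles call the MT_Fe_Ov fish DMY knockout males while their sex label is female. At D10 the samples were gonadal primordia taken with the tissue around them, without head and tail, whereas the later samples are labelled as ovary or testis. Each library is a whole-tissue sample, so fewer cells of a type and less RNA per cell cannot be told apart. Nothing in the sources used here says whether animals were pooled.

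A miRNA hairpin is cut into a 5p and a 3p arm, and usually a single arm is loaded into the silencing complex and accumulates. The seed, a short stretch near the 5′ end of the loaded arm, pairs with target mRNAs, and miRNAs of the same seed can act on overlapping targets. In mammals the 5p arms of miR-15 and miR-16 share a seed, and these miRNAs restrain cell division and survival by lowering cyclins, cyclin-dependent kinases and the survival factor BCL2. In vertebrates the families are encoded in clusters in which a miR-15 and a miR-16 hairpin lie close together, one of them within the gene of SMC4, a subunit of the condensin complex that compacts chromosomes. In the RefSeq annotation of the medaka genome (ASM223467v1) mir16 lies on chromosome 13 from base 13497131 to 13497233, within the span of smc4 (13491380 to 13507392). The annotated mir15a lies on chromosome 21 from base 9640656 to 9640759, within the span of spryd7 (9621194 to 9655588) and 2331 bases from trim13. Whether these spans are intronic was not examined. The annotation names do not show which lettered row of the count tables each locus gives rise to.

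Summed miRNA counts were 2518868 to 8818687 per library at D10, 54535 to 810120 at D30 and 1054214 to 3517578 at D120. The 3 D30 MT_Fe_Ov libraries were the shallowest as a group, from 54535 to 351194 counts. Levels are in reads per 1000000 miRNA counts (RPM). A count of 0 allows up to 3 counts, which is 8.54 to 55.0 RPM in the D30 MT_Fe_Ov libraries and 0.340 to 9.88 RPM in the others, counting error only. Summed muscle markers (miR-1, miR-133, miR-206 and miR-499, 10 rows) were 89201 to 156474 RPM in the D10 libraries and at most 8915 RPM in the later ones. The gonadal miR-202-5p had 0 counts in all D120 MT_Fe_Ov and D120 WT_Ma_Te libraries and averaged 259882 RPM in D120 WT_Fe_Ov, while miR-202-3p was present in all 3 of those groups. A value of 0 in every library of 2 groups, beside such a level in the third, may stand for a row that is missing there and not for an absent miRNA, which was not tested. Such an abundant row lowers the RPM of all others in its libraries, so D120 RPM values and shares depend on it, and fold changes below come from a fit with TMM scaling.

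The 5p arms made up nearly all of the family. The most abundant member was miR-16c-5p, with 9165 RPM on average over the 27 libraries and rank 25 of all miRNAs, followed by miR-16a-5p (6609 RPM, rank 35), miR-15c-5p (4713 RPM, rank 49), miR-15a-2-5p (3474 RPM, rank 59), miR-457a-5p (2040 RPM, rank 85) and miR-15b-1-5p (1983 RPM, rank 87). All 6 were counted in every library. The 5 members with a 3p arm ranked between 244 and 350 and had at most 175 RPM in any library. Levels of different miRNAs are counts of molecules of like length and need no length correction, but ligation and PCR can favour some sequences, so the order among members is that of the read counts. How reads that match several near-identical miRNAs were assigned is not stated, and members of one family may share reads.

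The 6 members with a 5p arm together took a larger share of the miRNA counts at each later stage, and at D120 the testis stood far above both ovary groups. At D10 they held 0.963% ± 0.0451 in MT_Fe_Ov, 1.02% ± 0.104 in WT_Fe_Ov and 1.13% ± 0.0937 in WT_Ma_Te (SD, n = 3 each, as below). At D30 they held 1.46% ± 0.241 in MT_Fe_Ov, 1.72% ± 0.213 in WT_Fe_Ov and 2.64% ± 0.132 in WT_Ma_Te. At D120 they held 3.61% ± 0.329 in MT_Fe_Ov, 3.59% ± 0.341 in WT_Fe_Ov and 9.06% ± 1.39 in WT_Ma_Te. The D120 share was 3.74 times the D10 share in MT_Fe_Ov, 3.51 times in WT_Fe_Ov and 8.03 times in WT_Ma_Te. As the D10 samples held tissue around the primordium, these folds are not those of the gonad alone. The part of that tissue in them was not tested. At D30 and at D120 every library of either ovary group was below every WT_Ma_Te library, whereas at D10 the libraries of MT_Fe_Ov, at 0.919 to 1.01%, stood just below those of WT_Ma_Te, at 1.03 to 1.21%, and the other pairs overlapped. With miR-202-5p left out of the denominator the D120 share was 3.61% in MT_Fe_Ov, 4.84% in WT_Fe_Ov and 9.06% in WT_Ma_Te, so that the 2 ovaries were no longer level, and the D30 share of WT_Ma_Te was 3.05%. These shares were not tested, being sums over chosen rows.

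**Figure D1:**
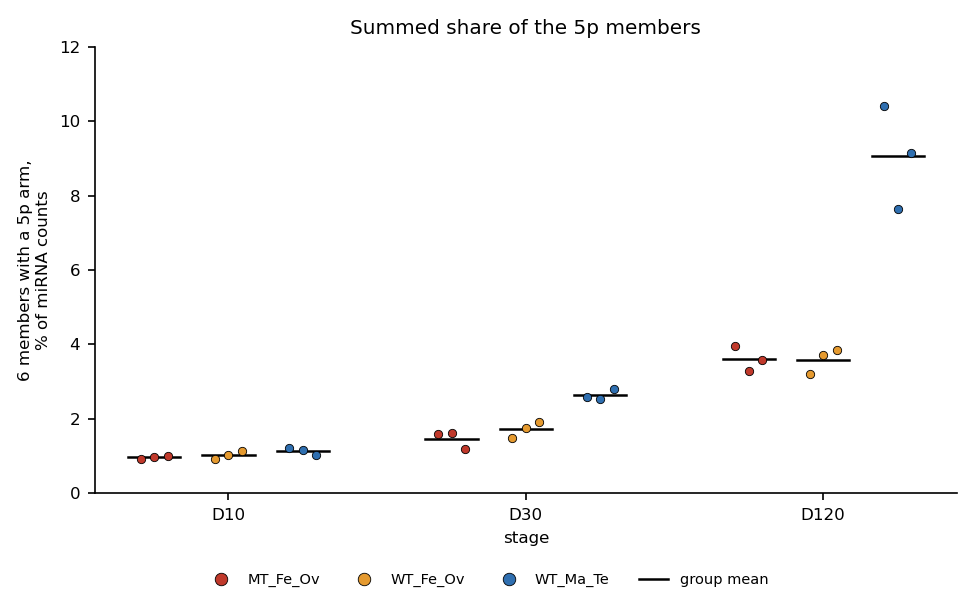
Share of the miRNA counts held by the 6 members with a 5p arm (y axis, percent) at D10, D30 and D120 in MT_Fe_Ov, WT_Fe_Ov and WT_Ma_Te, 1 point per library and a line at the mean of 3. At D120 the WT_Ma_Te libraries lie between 7.63 and 10.4%, above MT_Fe_Ov at 3.29 to 3.95% and WT_Fe_Ov at 3.20 to 3.84%.

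The most abundant member, miR-16c-5p, held a like mean part of this pool in the 3 genotypes at D10 and at D120, but not at D30. miR-16c-5p held 35.8% of the summed 5p counts in MT_Fe_Ov, 36.1% in WT_Fe_Ov and 35.6% in WT_Ma_Te at D10, and 31.8%, 33.3% and 32.6% in the same groups at D120. At D30 the leading member depended on the genotype. In D30 WT_Fe_Ov miR-15c-5p led in all 3 libraries with 41.9% ± 5.67 of the pool, in D30 MT_Fe_Ov miR-16c-5p led in all 3 with 39.3% ± 2.12, and in D30 WT_Ma_Te miR-16c-5p, miR-16a-5p and miR-15c-5p each led in 1 library. Of the 3 rarer members, miR-15a-2-5p and miR-15b-1-5p held a smaller part of the pool in both D30 ovary groups than in any D10 or testis library, and miR-457a-5p did so in D30 MT_Fe_Ov. miR-15a-2-5p held 3.77% of the pool in D30 MT_Fe_Ov, 3.85% in D30 WT_Fe_Ov and 9.50% in D30 WT_Ma_Te, miR-15b-1-5p held 1.23%, 0.921% and 4.07%, and miR-457a-5p held 1.18%, 5.38% and 8.47% of it. For miR-457a-5p the D30 WT_Fe_Ov libraries ran from 3.26 to 9.34% and overlapped D30 WT_Ma_Te, at 7.25 to 10.2%, and D10 WT_Fe_Ov, at 7.55 to 9.17%. These shares compare counts inside a library and do not depend on the scaling between libraries.

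**Figure D2:**
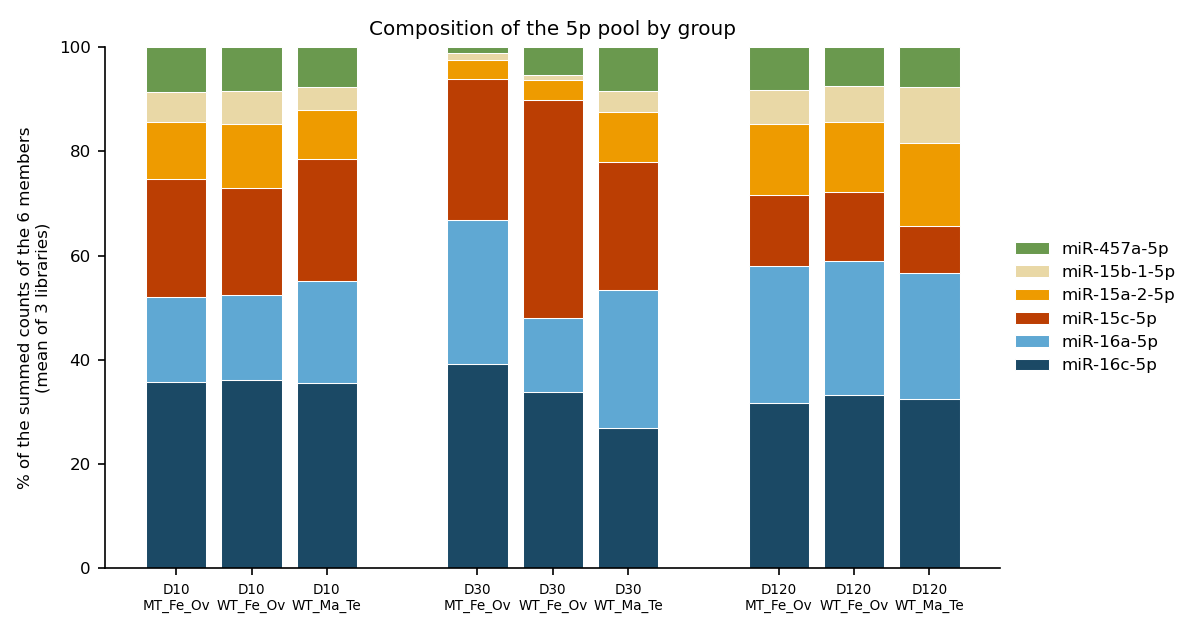
Mean percentage of the summed counts of the 6 members with a 5p arm that each member held (stacked bars, 3 libraries per group) in the 9 groups. In D30 MT_Fe_Ov miR-15c-5p takes 27% against 41.9% in D30 WT_Fe_Ov, and miR-457a-5p is nearly lost from the D30 MT_Fe_Ov bar at 1.18%.

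Levels of the members were spread over a wide range of group means, and WT_Ma_Te at D120 was the highest of the 9 groups for all 6. For miR-16c-5p the order below it was D120 WT_Fe_Ov and D120 MT_Fe_Ov, whose libraries overlapped, then D30 WT_Ma_Te, D30 WT_Fe_Ov and D30 MT_Fe_Ov, then the D10 groups. D30 MT_Fe_Ov overlapped D10 WT_Ma_Te, the next in order. miR-16a-5p followed a like order, except that D30 MT_Fe_Ov stood clear above D30 WT_Fe_Ov. miR-15a-2-5p and miR-15b-1-5p were lowest in the 2 D30 ovary groups, which overlapped each other and lay below every D10 library. miR-457a-5p was lowest in D30 MT_Fe_Ov, clear of all other groups, and its 3 D10 groups overlapped. For miR-15c-5p the stages were less clearly ordered. D120 WT_Ma_Te, D30 WT_Fe_Ov and D30 WT_Ma_Te led and overlapped in turn, and the remaining groups, below them, overlapped from each to the next. Over the 9 group means of log2(RPM + 1), miR-15a-2-5p and miR-15b-1-5p had a Pearson r of 0.989 and miR-16a-5p and miR-16c-5p one of 0.964, whereas miR-15c-5p had its highest r of 0.765 with miR-16c-5p and its lowest of 0.354 with miR-15b-1-5p. These points share libraries and denominators, and the values describe the 9 groups only.

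**Figure D3:**
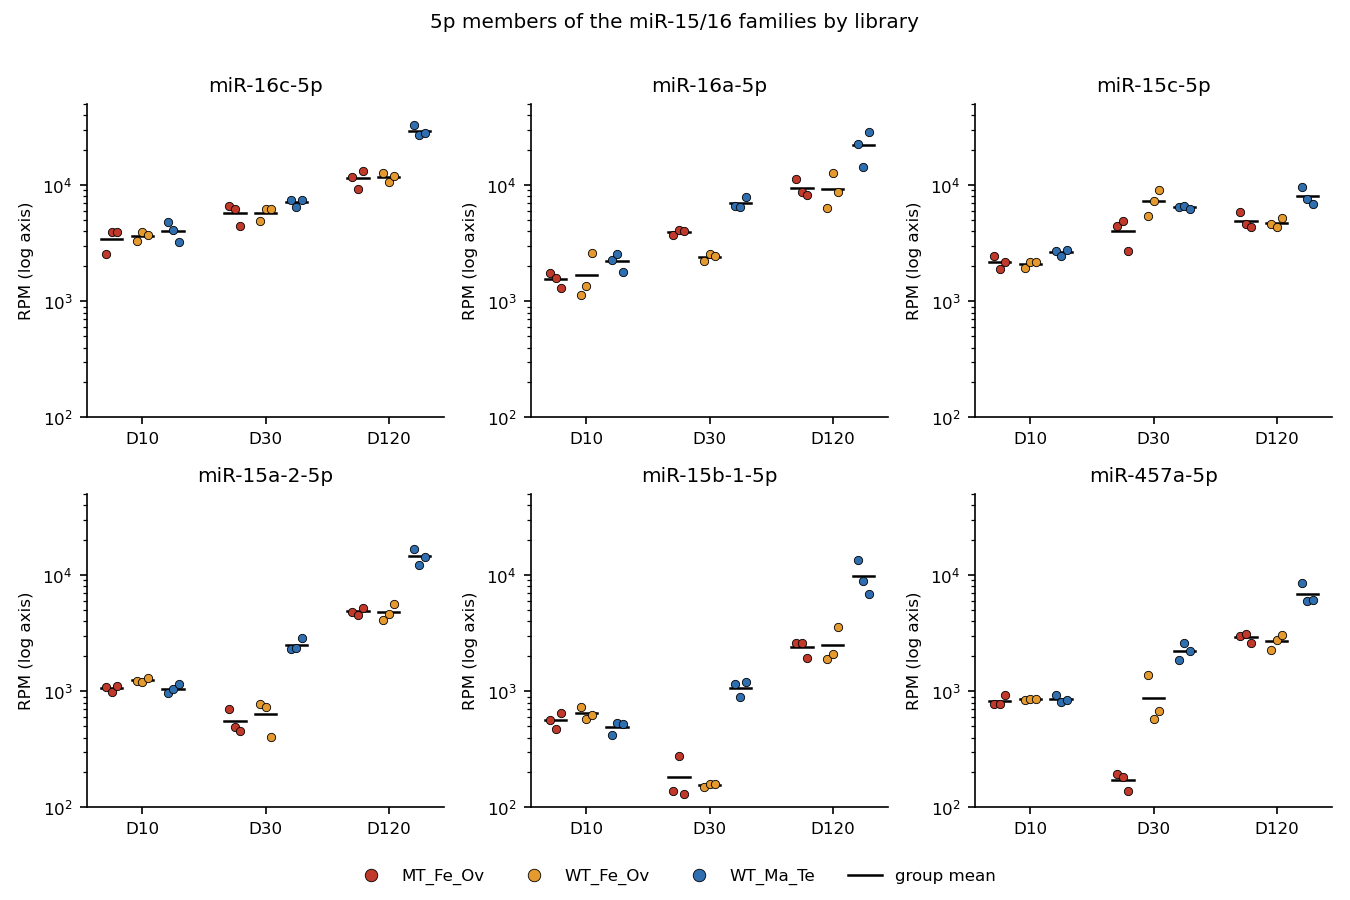
RPM (log axis) of the 6 members with a 5p arm in each of the 27 libraries, by stage and genotype, with a line at the mean of each group. The miR-457a-5p points of D30 MT_Fe_Ov lie at 140 to 196 RPM, below those of every other group, and the D30 ovary points of miR-15b-1-5p lie at 131 to 275 RPM against 886 to 1193 RPM in D30 WT_Ma_Te.

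Genotypes were compared within each stage by the quasi-likelihood F test of edgeR on the counts of the 9 libraries of the stage. A member was called where its p-value, adjusted by Benjamini-Hochberg over all miRNAs tested, was 0.05 or less and its log2 fold change was 1 or more in size. Both ovary groups were set against the same WT_Ma_Te libraries, so those 2 comparisons are not independent of each other. In these comparisons a negative log2 fold change means a lower level in the group named first.

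At D10 no member passed the test between genotypes. The edgeR test called 0 of the 10 members tested in each of the 3 comparisons, as it did 0 of the 388 miRNAs tested (0%), and DESeq2 called 0 members as well. At an unadjusted edgeR p under 0.05 stood 0 members in MT_Fe_Ov against WT_Fe_Ov, 1 in MT_Fe_Ov against WT_Ma_Te and 0 in WT_Fe_Ov against WT_Ma_Te. Of all 388 miRNAs tested, 11, 72 and 76 stood there in the same comparisons. RPM ranges did not overlap for 1, 2 and 4 of the 10 members in these comparisons, beside 9.02%, 22.2% and 21.9% of all miRNAs tested. miR-457a-5p, which differed most at D30, was at 775, 770 and 929 RPM in D10 MT_Fe_Ov, 843, 866 and 852 RPM in D10 WT_Fe_Ov and 938, 808 and 835 RPM in D10 WT_Ma_Te. The 3 ranges overlapped. miR-15a-2-5p was at 1088, 979 and 1119 RPM in D10 MT_Fe_Ov, 1233, 1206 and 1297 RPM in D10 WT_Fe_Ov and 957, 1046 and 1156 RPM in D10 WT_Ma_Te. Here every WT_Fe_Ov library was above the others, though by a small step (MT_Fe_Ov over WT_Fe_Ov -0.27 ± 0.20, edgeR adjusted p = 1.0). The most abundant member, miR-16c-5p, was at 2560, 3915 and 3927 RPM in D10 MT_Fe_Ov, 3317, 3971 and 3752 RPM in D10 WT_Fe_Ov and 4828, 4093 and 3209 RPM in D10 WT_Ma_Te, with overlap throughout. Muscle markers alone held 89201 to 125342 RPM in MT_Fe_Ov, 121599 to 152675 RPM in WT_Fe_Ov and 97760 to 156474 RPM in WT_Ma_Te at this stage, and how much of the members' levels came from the primordium itself was not tested.

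At D30 the ovary of XY fish without DMY was lower in miR-457a-5p than the ovary of XX females, and both ovaries were lower than the testis in several members. Between MT_Fe_Ov and WT_Fe_Ov, 2 of 8 members tested were called, 1 higher and 1 lower, beside 28.4% of the 250 miRNAs tested (18.8% higher, 9.6% lower). Between MT_Fe_Ov and WT_Ma_Te 3 of 8 were called, all lower (31.6% of all called, 18% lower). Between WT_Fe_Ov and WT_Ma_Te 4 of 8 were called, all lower (46.8% of all called, 30.4% lower). RPM ranges lay wholly below those of the other group for 2, 6 and 5 of the 8 members in these comparisons, beside 20%, 43.6% and 46% of all miRNAs tested. The median log2 fold change of the 8 members was 0.00, -1.11 and -0.97 in these 3 comparisons, beside 0.17, -0.29 and -0.65 over all miRNAs tested. Over all miRNAs the first comparison had 47 higher and 24 lower calls, or 41 and 31 when scaled by library totals only, and the second had 34 higher and 45 lower calls, or 25 and 61.

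miR-457a-5p, a member known from fishes, separated the 3 genotypes. Its level was 196, 183 and 140 RPM in D30 MT_Fe_Ov (replicates 1 to 3, as below, from 21, 10 and 49 counts), 1386, 574 and 678 RPM in D30 WT_Fe_Ov, and 1873, 2600 and 2217 RPM in D30 WT_Ma_Te. No 2 of these groups overlapped, although the WT_Fe_Ov libraries were spread widely, with replicate 1 well above the others. MT_Fe_Ov was lower than WT_Fe_Ov by a log2 fold change of -2.03 ± 0.38 (SE, edgeR adjusted p = 0.0038) and lower than WT_Ma_Te by -3.33 ± 0.39 (edgeR adjusted p = 0.00059). Both calls held with any 1 of the 9 libraries left out, the first at -2.29 to -1.63 and the second at -3.49 to -3.11. WT_Fe_Ov was lower than WT_Ma_Te by -1.30 ± 0.35 (edgeR adjusted p = 0.013), but this call was lost without WT_Fe_Ov replicate 2 or 3 or WT_Ma_Te replicate 2 or 3, with values of -1.63 to -0.99 over the leave-outs.

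Summed skin markers (miR-203 and miR-205, 5 rows, all detected in each D30 group) were 105 to 131 RPM in D30 MT_Fe_Ov, 2568 to 5004 RPM in D30 WT_Fe_Ov and 1014 to 1674 RPM in D30 WT_Ma_Te. They moved with miR-457a-5p between the ovaries but not between WT_Fe_Ov and testis. The gonadal miR-202 (2 rows summed, 0 at 0) was at 5153 to 5910 RPM in D30 MT_Fe_Ov, 8647 to 12639 RPM in D30 WT_Fe_Ov and 127278 to 140263 RPM in D30 WT_Ma_Te. This sum ran in the same order as miR-457a-5p across the 3 genotypes, without overlap, but only through its 5p row. miR-202-5p averaged 4615, 10118 and 135068 RPM in these groups, while miR-202-3p ran the other way, at 1001, 721 and 641 RPM. The part of either list in the difference was not tested. Muscle markers were 757 to 2946 RPM in D30 MT_Fe_Ov, 1100 to 1185 RPM in D30 WT_Fe_Ov and 7381 to 8915 RPM in D30 WT_Ma_Te. Of the 10 muscle rows 5, 5 and 3 were at 0 in these groups. They moved with the testis calls of this stage, and their part in those was not tested either.

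miR-15a-2-5p and miR-15b-1-5p were low in both ovaries alike. miR-15a-2-5p was at 699, 495 and 456 RPM in D30 MT_Fe_Ov, 780, 736 and 403 RPM in D30 WT_Fe_Ov, and 2304, 2361 and 2873 RPM in D30 WT_Ma_Te. miR-15b-1-5p was at 140, 275 and 131 RPM in D30 MT_Fe_Ov, 151, 160 and 160 RPM in D30 WT_Fe_Ov, and 1155, 886 and 1193 RPM in D30 WT_Ma_Te. For both miRNAs the ovary groups overlapped each other and lay below every testis library. Against WT_Ma_Te, miR-15a-2-5p was lower by -1.81 ± 0.32 in MT_Fe_Ov (edgeR adjusted p = 0.0029) and by -1.93 ± 0.31 in WT_Fe_Ov (edgeR adjusted p = 0.00097). miR-15b-1-5p was lower by -2.27 ± 0.38 in MT_Fe_Ov (edgeR adjusted p = 0.0025) and by -2.70 ± 0.38 in WT_Fe_Ov (edgeR adjusted p = 0.00047). These 4 calls held under every leave-out and every alternative tried. Between the ovaries the log2 fold changes of MT_Fe_Ov over WT_Fe_Ov were 0.12 ± 0.31 and 0.42 ± 0.37 for these miRNAs and passed no test.

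miR-16a-5p was intermediate in the XY ovary. It was at 3738, 4107 and 3995 RPM in D30 MT_Fe_Ov, 2217, 2573 and 2455 RPM in D30 WT_Fe_Ov, and 6593, 6451 and 7895 RPM in D30 WT_Ma_Te. The 3 groups did not overlap. WT_Fe_Ov was lower than WT_Ma_Te by -1.45 ± 0.24 (edgeR adjusted p = 0.0012), a call that held under every leave-out. MT_Fe_Ov was higher than WT_Fe_Ov by 1.01 ± 0.24 (edgeR adjusted p = 0.012), just past the fold threshold. That call was lost in 7 of 9 leave-outs, all but those without MT_Fe_Ov replicate 1 or WT_Fe_Ov replicate 2, with values of 0.84 to 1.05, which leaves 1 called member between the ovaries. The call was also lost with RLE scaling (0.95), with library totals only (0.71) and with miR-202-5p left out of the fit (0.95). MT_Fe_Ov over WT_Ma_Te gave -0.44 ± 0.24 (edgeR adjusted p = 0.18). Erythroid markers (miR-144 and miR-451, 3 rows) were 7782 to 27964 RPM in D30 MT_Fe_Ov, 5025 to 6433 RPM in D30 WT_Fe_Ov and 18444 to 30723 RPM in D30 WT_Ma_Te, with 1, 1 and 0 rows at 0. They ran in the same order as miR-16a-5p, and their part in it was not tested.

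The 2 remaining 5p members passed no test between genotypes at D30. miR-16c-5p was at 6572, 6271 and 4459 RPM in D30 MT_Fe_Ov, 4905, 6284 and 6252 RPM in D30 WT_Fe_Ov, and 7386, 6459 and 7493 RPM in D30 WT_Ma_Te. Its fitted log2 fold changes lay between -0.20 and 0.25. miR-15c-5p was at 4437, 4933 and 2688 RPM in D30 MT_Fe_Ov, 5408, 7306 and 9089 RPM in D30 WT_Fe_Ov, and 6536, 6675 and 6234 RPM in D30 WT_Ma_Te. The MT_Fe_Ov libraries were below all the others, yet the log2 fold change of -0.64 ± 0.30 over WT_Fe_Ov missed the threshold (edgeR adjusted p = 0.14).

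**Figure D4:**
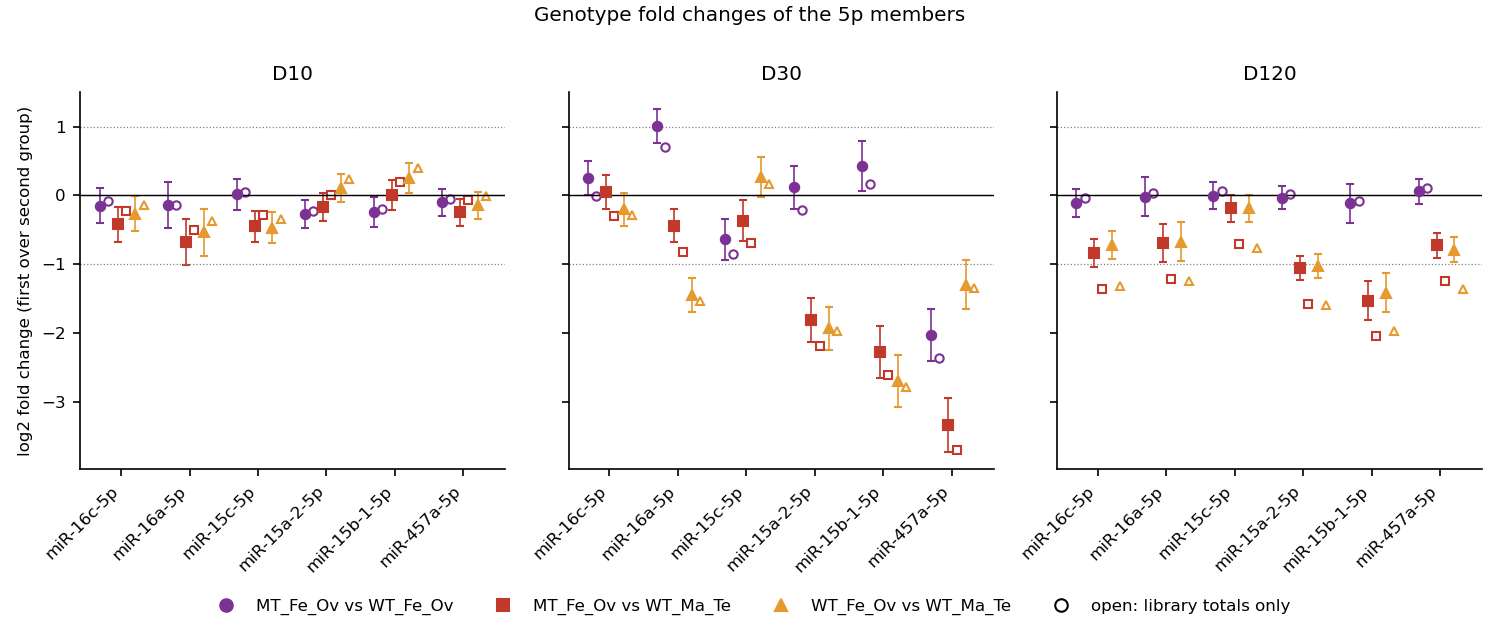
Fitted log2 fold changes of the 6 members with a 5p arm in the 3 genotype comparisons at D10, D30 and D120 (filled, edgeR with TMM scaling, bars ± 1 SE, open, scaling by library totals only, dotted lines at the fold threshold). At D30 miR-457a-5p spreads from -3.33 to -1.30, and at D120 the open testis comparisons lie lower than the filled ones while MT_Fe_Ov against WT_Fe_Ov stays between -0.11 and 0.06.

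At D120 no member differed between the 2 ovaries by the test, and the testis was above both. Between MT_Fe_Ov and WT_Fe_Ov 0 of 11 members were called by edgeR, beside 2 of 344 miRNAs called (0.581%), and DESeq2 called 0 members. An unadjusted edgeR p under 0.05 was found for 0 members, beside 16 of the 344 miRNAs. RPM ranges, with miR-202-5p in the totals, failed to overlap for 0 members, beside 7.56% of all. Against WT_Ma_Te, 4 of 11 members were called in MT_Fe_Ov, all lower (36% of all miRNAs called, 17.2% lower), and 4 of 11 in WT_Fe_Ov, all lower (38.1% called, 16.9% lower). They were both arms of miR-15a-2 and both arms of miR-15b-1 in each comparison, and 2 members were called in each without WT_Ma_Te replicate 1. With miR-202-5p in the totals, RPM ranges that lay wholly below those of the testis were found for 9 of 11 members in either ovary, beside 42.2% of all miRNAs tested for MT_Fe_Ov and 45.1% for WT_Fe_Ov. The members' median log2 fold change was -0.83 in MT_Fe_Ov and -0.79 in WT_Fe_Ov, beside -0.01 and 0.04 over all miRNAs tested.

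How many members were called against the D120 testis depended on the scaling. With library totals in place of TMM the median of all miRNAs moved to -0.52 in MT_Fe_Ov and -0.54 in WT_Fe_Ov, and 8 of 11 members were called lower in each (28.2% and 29.7% of all miRNAs called lower). The added members were miR-16a-5p, both arms of miR-16c and miR-457a-5p. When miR-202-5p was left out of those totals the count was 8 in MT_Fe_Ov and 4 in WT_Fe_Ov, beside medians over all miRNAs of -0.52 and -0.10. With TMM scaling and without that row it was 4 in each, beside medians of -0.02 and 0.04. Over all miRNAs there were 65 higher and 59 lower calls with TMM and 34 and 97 with library totals in MT_Fe_Ov, and 73 and 58 with TMM and 35 and 102 with library totals in WT_Fe_Ov. No member was called higher than in testis under either scaling.

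miR-15a-2-5p was at 4816, 4542 and 5267 RPM in D120 MT_Fe_Ov, 4126, 4661 and 5664 RPM in D120 WT_Fe_Ov, and 16920, 12203 and 14417 RPM in D120 WT_Ma_Te. It was lower than in testis by -1.05 ± 0.17 in MT_Fe_Ov and by -1.02 ± 0.17 in WT_Fe_Ov (edgeR adjusted p = 0.0013 and 0.0012), close to the fold threshold. Without WT_Ma_Te replicate 1 the call was lost in both, and without WT_Fe_Ov replicate 2 in the second, the weakest values being -1.0 and -0.96. miR-15b-1-5p was at 2595, 2625 and 1937 RPM in D120 MT_Fe_Ov, 1909, 2076 and 3558 RPM in D120 WT_Fe_Ov, and 13602, 8957 and 6932 RPM in D120 WT_Ma_Te. It was lower by -1.53 ± 0.29 in MT_Fe_Ov and -1.41 ± 0.29 in WT_Fe_Ov (edgeR adjusted p = 0.0026 and 0.0032) and kept both calls under every leave-out. Testis replicate 1 was the highest and replicate 3 the lowest of the testis libraries for this miRNA.

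The other 5p members were also below the testis in RPM, with smaller folds. miR-16c-5p was at 11792, 9260 and 13357 RPM in D120 MT_Fe_Ov, 12725, 10687 and 12068 RPM in D120 WT_Fe_Ov, and 32777, 27135 and 28011 RPM in D120 WT_Ma_Te. Its log2 fold change was -0.83 ± 0.21 in MT_Fe_Ov and -0.72 ± 0.20 in WT_Fe_Ov, under the fold threshold despite edgeR adjusted p-values of 0.0089 and 0.016. miR-16a-5p was at 11376, 8744 and 8247 RPM in D120 MT_Fe_Ov, 6331, 12645 and 8803 RPM in D120 WT_Fe_Ov, and 22590, 14396 and 28940 RPM in D120 WT_Ma_Te. The testis values were widely spread, and no testis call was made for it.

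miR-457a-5p, which had set the 2 ovaries apart at D30, was at 3008, 3144 and 2609 RPM in D120 MT_Fe_Ov, 2270, 2762 and 3072 RPM in D120 WT_Fe_Ov, and 8548, 6027 and 6170 RPM in D120 WT_Ma_Te. The ovaries overlapped at this stage, with a log2 fold change of 0.06 ± 0.18. Against testis it gave -0.72 ± 0.18 in MT_Fe_Ov and -0.79 ± 0.18 in WT_Fe_Ov, again under the fold threshold. miR-15c-5p differed least from testis, at 5888, 4594 and 4367 RPM in D120 MT_Fe_Ov, 4634, 4338 and 5266 RPM in D120 WT_Fe_Ov, and 9658, 7615 and 6884 RPM in D120 WT_Ma_Te. Its log2 fold change was -0.19 ± 0.20 in both ovaries with TMM scaling. With library totals it was -0.70 and -0.76.

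Immune markers (miR-142, miR-146, miR-150, miR-155 and miR-223, 9 rows, 0 of them at 0 at this stage) were 22284 to 23996 RPM in D120 MT_Fe_Ov, 25676 to 27155 RPM in D120 WT_Fe_Ov and 3895 to 8109 RPM in D120 WT_Ma_Te, opposite in direction to the members. Erythroid markers, with 0 of 3 rows at 0, were 48959 to 126363 RPM, 75865 to 115912 RPM and 49624 to 85793 RPM in the same groups and overlapped. WT_Ma_Te replicate 3 carried 22613 RPM of gut markers (miR-192, miR-194 and miR-215, 6 rows) against at most 1681 RPM in the other D120 libraries. This library was the highest in miR-16a-5p and the lowest in miR-15b-1-5p of the D120 testis, and leaving it out kept the D120 testis calls of miR-15a-2 and miR-15b-1.

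The course over time was tested in a fit of all 27 libraries, with the stage named later set over the earlier one. From D10 to D30 the members went in different directions in the ovaries. In MT_Fe_Ov 4 of 11 members were called, 2 higher and 2 lower (55.4% of 399 miRNAs called, 15.5% higher and 39.8% lower). In WT_Fe_Ov 6 of 11 were called, 3 higher and 3 lower (74.7% called, 17.3% higher and 57.4% lower). One of the lower calls was miR-16c-3p, at 0 counts in D30 WT_Fe_Ov, where the floor lies above its D10 mean of 1.75 RPM and bears out no fall. That call was lost in 3 leave-outs and by DESeq2. Another lower call was miR-15c-3p, also at 0 counts in D30 WT_Fe_Ov, where the floor bounds the fall at only 1.13-fold. In WT_Ma_Te 7 of 11 were called, all higher (60.7% called, 24.8% higher). The 7 include the rare arms miR-15a-2-3p, miR-16a-3p and miR-16c-3p, with 39, 24 and 18 summed counts in D30 WT_Ma_Te. Of these, the miR-16a-3p call was lost without D30 WT_Ma_Te replicate 1 (edgeR adjusted p = 0.065). The testis count was 4 without any 1 of D10 MT_Fe_Ov replicate 3, D120 WT_Fe_Ov replicate 3 and D120 WT_Ma_Te replicates 1 and 3, none of which belongs to either group of this contrast, so that they enter through the shared scaling, filter and spread. Tissue differs between these stages, since the muscle markers that were above 89201 RPM in every D10 library were at most 8915 RPM at D30, and the median of all miRNAs was -2.07 in MT_Fe_Ov, -3.34 in WT_Fe_Ov and -0.36 in WT_Ma_Te. The members' medians were 0.92, 0.59 and 1.18. The part of the tissue around the primordium in these changes was not tested. Scaling moved the stage values as well. With miR-202-5p left out of the fit the median of all miRNAs from D10 to D30 was -2.17 in MT_Fe_Ov, -3.71 in WT_Fe_Ov and -0.22 in WT_Ma_Te.

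miR-15b-1-5p fell in both ovaries by D30, with log2 fold changes of -1.53 ± 0.29 in MT_Fe_Ov and -1.98 ± 0.28 in WT_Fe_Ov (edgeR adjusted p = 7.9e-05 and 1.1e-06), while in WT_Ma_Te it gave 0.92 ± 0.27, under the fold threshold, and was called there with library totals (1.13). miR-457a-5p fell in MT_Fe_Ov by a log2 fold change of -2.06 ± 0.29 (edgeR adjusted p = 2.3e-06). In WT_Fe_Ov it gave 0.07 ± 0.27 and in WT_Ma_Te it was higher by 1.18 ± 0.27 (edgeR adjusted p = 0.00061). That testis call was lost without any 1 of D10 MT_Fe_Ov replicate 3, D120 WT_Fe_Ov replicate 3 and D120 WT_Ma_Te replicates 1 and 3, the lowest value being 0.93, and with RLE scaling (0.91). miR-16a-5p rose in MT_Fe_Ov by 1.54 ± 0.31 and in WT_Ma_Te by 1.45 ± 0.31 (edgeR adjusted p = 0.00019 and 0.00033), and gave 0.59 ± 0.30 in WT_Fe_Ov. miR-15c-5p rose in WT_Fe_Ov by 1.86 ± 0.25 (edgeR adjusted p = 5.8e-07). It gave 1.02 ± 0.24 in MT_Fe_Ov and 1.11 ± 0.24 in WT_Ma_Te, values close to the threshold. Without any 1 of the 4 libraries just named the testis call was lost, at 0.84 to 1.16 over the leave-outs, and with RLE scaling (0.83). The MT_Fe_Ov call was lost without any of D10 MT_Fe_Ov replicates 2 and 3, D10 WT_Fe_Ov replicates 2 and 3, D30 MT_Fe_Ov replicate 1, D120 WT_Fe_Ov replicate 3 and D120 WT_Ma_Te replicates 1 and 3, at 0.86 to 1.18, with library totals (0.89) and with miR-202-5p left out of the fit (0.89). miR-15a-2-5p gave -0.74 ± 0.27 in MT_Fe_Ov, -0.92 ± 0.27 in WT_Fe_Ov and 1.05 ± 0.27 in WT_Ma_Te, where the call was lost in 9 of 27 leave-outs with a lowest value of 0.78, and with RLE scaling (0.79). With miR-202-5p left out of the fit the WT_Fe_Ov value was -1.54, which was called.

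Every member called between D30 and D120 was higher at D120. In MT_Fe_Ov 6 of 11 were called, all higher (53.1% of all miRNAs called, 35.3% higher), in WT_Fe_Ov 7 of 11, all higher (65.4% called, 46.9% higher), and in WT_Ma_Te 5 of 11, all higher (43.6% called, 30.8% higher). The share called in either direction was near that of all miRNAs in each genotype. Medians of the members were 1.03 in MT_Fe_Ov, 1.74 in WT_Fe_Ov and 1.58 in WT_Ma_Te. Over all miRNAs tested they were 1.44, 2.02 and 0.78, so the members' median was the lower one in both ovaries. The 6 in MT_Fe_Ov include miR-16c-3p, for which the floor at D30 lies above the D120 mean of 6.02 RPM and whose call was lost in 8 leave-outs. The 7 in WT_Fe_Ov include miR-15c-3p and miR-16c-3p, both at 0 counts in D30 WT_Fe_Ov. The floor there bounds their rises at only 2.97-fold and 1.38-fold. The MT_Fe_Ov count was 3 without any 1 of D10 MT_Fe_Ov replicate 3, D120 WT_Fe_Ov replicate 3 and D120 WT_Ma_Te replicates 1 and 3. Among the 5p members miR-15b-1-5p and miR-15a-2-5p rose most in WT_Fe_Ov and WT_Ma_Te, and miR-457a-5p and miR-15b-1-5p in MT_Fe_Ov. The D30 level is the base of these folds, so a low D30 level by itself makes for a steep rise. miR-457a-5p rose by 4.07 ± 0.31 in MT_Fe_Ov, 1.74 ± 0.27 in WT_Fe_Ov and 1.58 ± 0.27 in WT_Ma_Te (edgeR adjusted p = 3.7e-10, 6.7e-06 and 5.6e-05). miR-15b-1-5p rose by 3.80 ± 0.31 in MT_Fe_Ov, 4.08 ± 0.30 in WT_Fe_Ov and 3.15 ± 0.29 in WT_Ma_Te (edgeR adjusted p = 6.0e-10, 8.2e-11 and 1.9e-08). miR-15a-2-5p rose by 3.14 ± 0.29, 3.02 ± 0.28 and 2.48 ± 0.28 in the same groups (edgeR adjusted p = 4.7e-09, 3.5e-09 and 3.5e-07). All 9 of these calls held under every leave-out.

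The 5p arms of miR-16 had smaller folds than these in each genotype, apart from miR-457a-5p in WT_Fe_Ov and WT_Ma_Te. miR-16c-5p rose by 2.00 ± 0.27 in WT_Ma_Te (edgeR adjusted p = 3.2e-06), against 1.03 ± 0.26 in MT_Fe_Ov and 1.15 ± 0.26 in WT_Fe_Ov. The MT_Fe_Ov call was lost without D10 MT_Fe_Ov replicate 3, D30 MT_Fe_Ov replicate 2, D120 MT_Fe_Ov replicate 3, D120 WT_Fe_Ov replicate 3 or D120 WT_Ma_Te replicate 1 or 3, at 0.76 to 1.19, and with RLE scaling (0.70) and library totals (0.99). The WT_Fe_Ov call was lost without D10 MT_Fe_Ov replicate 2, D10 WT_Fe_Ov replicate 2 or 3 or D120 WT_Fe_Ov replicate 1, at 0.84 to 1.28. miR-16a-5p rose by 2.03 ± 0.31 in WT_Fe_Ov and 1.60 ± 0.31 in WT_Ma_Te (edgeR adjusted p = 5.8e-06 and 0.00024). In MT_Fe_Ov it gave 1.23 ± 0.31, a call lost without D10 MT_Fe_Ov replicate 3, D120 WT_Fe_Ov replicate 3 or D120 WT_Ma_Te replicate 1 or 3, at 0.98 to 1.44, and with RLE scaling (0.97). miR-15c-5p was called in no genotype, at 0.34 ± 0.24 in MT_Fe_Ov, -0.50 ± 0.24 in WT_Fe_Ov and 0.27 ± 0.24 in WT_Ma_Te.

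Changes in a genotype difference from stage to stage were tested as interactions in the same fit. The difference between MT_Fe_Ov and WT_Fe_Ov in miR-457a-5p changed from D10 to D30 by -2.13 ± 0.39 (edgeR adjusted p = 0.00027) and from D30 to D120 by 2.33 ± 0.39 (edgeR adjusted p = 0.00016). Its difference between MT_Fe_Ov and WT_Ma_Te changed by -3.25 ± 0.39 and then by 2.49 ± 0.39 (edgeR adjusted p = 3.0e-06 and 3.7e-05). These 4 results held under every leave-out and alternative. All 4 include the same 3 D30 MT_Fe_Ov libraries, and the change to D30 and the change after it share the D30 difference with opposite sign. They are therefore not independent of each other. The D10 to D30 interactions were added after the values of the members had been seen. They span the change from primordia with the tissue around them to ovary or testis. A change in the gonad and this change of tissue cannot be told apart in them. Among all miRNAs, the interaction of MT_Fe_Ov and WT_Fe_Ov was called for 25.1% from D10 to D30 and for 21.6% from D30 to D120.

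Against the testis, miR-15a-2-5p and miR-15b-1-5p parted between D10 and D30 in both ovaries. The change in the difference was -1.79 ± 0.38 and -2.46 ± 0.39 for MT_Fe_Ov (edgeR adjusted p = 0.00084 and 4.0e-05), and -1.97 ± 0.38 and -2.91 ± 0.38 for WT_Fe_Ov (edgeR adjusted p = 0.00014 and 1.4e-06). From D30 to D120 neither miRNA was called, with values of 0.54 to 0.93. Over all miRNAs this interaction was called for 34.8% with a median of 0.62 for MT_Fe_Ov, and for 44.9% with a median of 0.93 for WT_Fe_Ov. With miR-202-5p left out of the fit both members were called, at 1.16 and 1.14 for MT_Fe_Ov and at 1.63 and 2.04 for WT_Fe_Ov. The medians over all miRNAs were then 1.08 and 2.00. Whether the difference narrowed again depends on that row. From D10 to D30 the interaction was called for 4 of 11 members for MT_Fe_Ov and 5 of 11 for WT_Fe_Ov, all lower. These shares are near those of all miRNAs, 33.3% for MT_Fe_Ov (23.1% lower) and 49.4% for WT_Fe_Ov (35.8% lower). Medians of the members were -1.33 and -1.86, beside -0.78 and -1.16 over all miRNAs. The part of the change of tissue after D10 in these interactions was not tested.

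Ratios of 2 members in the same library do not depend on the scaling. The ratio of miR-457a-5p to miR-15c-5p kept the D30 separation of the 3 genotypes, and that of miR-16a-5p to miR-16c-5p kept it in part. Per count of miR-15c-5p there were 0.0444 ± 0.0074 counts of miR-457a-5p in D30 MT_Fe_Ov, 0.137 ± 0.104 in D30 WT_Fe_Ov and 0.344 ± 0.0525 in D30 WT_Ma_Te. The highest MT_Fe_Ov library (0.0519) was below the lowest of WT_Fe_Ov (0.0746). At D10 the same ratio was 0.384 ± 0.0601, 0.409 ± 0.0239 and 0.326 ± 0.0224 in these genotypes, and at D120 it was 0.598 ± 0.0868, 0.570 ± 0.0743 and 0.858 ± 0.0575. miR-16a-5p per count of miR-16c-5p was 0.707 ± 0.170 in D30 MT_Fe_Ov, 0.418 ± 0.0305 in D30 WT_Fe_Ov and 0.982 ± 0.0818 in D30 WT_Ma_Te. The D30 MT_Fe_Ov libraries, at 0.569 to 0.896, lay above D30 WT_Fe_Ov, at 0.393 to 0.452, but overlapped D30 WT_Ma_Te, at 0.893 to 1.05. At D120 that ratio overlapped between the genotypes, at 0.617 to 0.965 in MT_Fe_Ov, 0.498 to 1.18 in WT_Fe_Ov and 0.531 to 1.03 in WT_Ma_Te. The ratios were not tested, as 3 libraries against 3 cannot give a permutation p below 0.1.

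**Figure D5:**
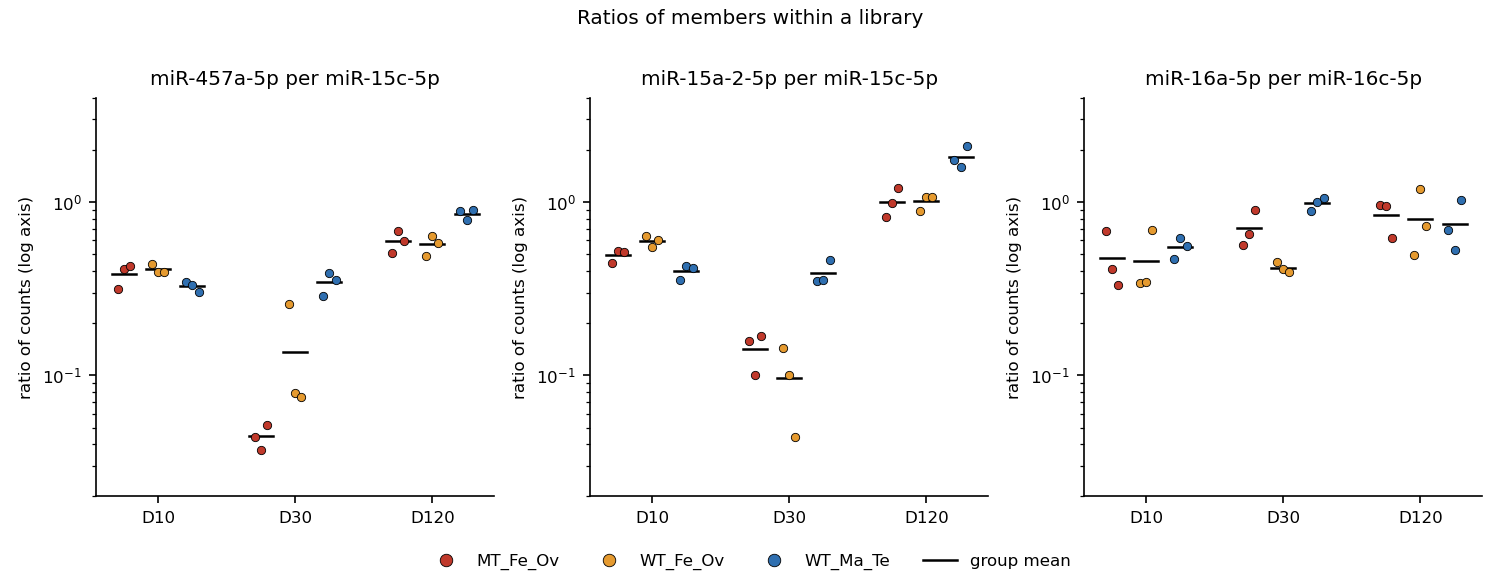
Counts of miR-457a-5p per count of miR-15c-5p, of miR-15a-2-5p per count of miR-15c-5p, and of miR-16a-5p per count of miR-16c-5p (log axes) in each library by stage and genotype, lines at group means. In D30 the first ratio is 0.0372 to 0.0519 in MT_Fe_Ov, against 0.0746 to 0.256 in WT_Fe_Ov and 0.286 to 0.389 in WT_Ma_Te.

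The 3p arms stayed rare, with exceptions in D30 WT_Fe_Ov, where miR-15a-2-3p held 0 to 10.1% of its hairpin and miR-15b-1-3p held more. The members with a 3p arm together held 0.172 to 0.509% of the members' counts as means of the 9 groups. miR-15b-1-3p was the most abundant, and in D30 WT_Fe_Ov it had 47, 37 and 34 counts, or 25.6 to 30.6% of the counts of its hairpin. In D30 WT_Ma_Te, with 33, 23 and 21 counts, it held 5.03 to 5.48%, and in D10 WT_Fe_Ov 1.35 to 2.25%. Its level was alike in D30 WT_Fe_Ov and D30 WT_Ma_Te, at 61.2 and 59.3 RPM (log2 fold change 0.12 ± 1.28, not called). miR-15b-1-5p averaged 157 and 1078 RPM there, so the share differed through the 5p arm. In D30 MT_Fe_Ov miR-15b-1-3p had 15, 0 and 0 counts, and the share ran from 0 to 50%, which these depths cannot resolve. From D10 to D30 in WT_Fe_Ov this arm rose by a log2 fold change of 2.34 ± 0.74 (edgeR adjusted p = 0.0065), held under every leave-out, while miR-15b-1-5p of the same hairpin fell by a log2 fold change of -1.98. At D120 the arm was back at 0.978 to 1.96% of its hairpin in MT_Fe_Ov, 0.924 to 1.59% in WT_Fe_Ov and 1.05 to 1.39% in WT_Ma_Te.

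miR-15a-2-3p had 5, 7 and 8 counts in D120 MT_Fe_Ov, 10, 37 and 16 in D120 WT_Fe_Ov, and 95, 45 and 14 in D120 WT_Ma_Te, where replicate 3 was close to the ovaries. It was lower than in testis by -3.06 ± 0.67 in MT_Fe_Ov and -1.93 ± 0.60 in WT_Fe_Ov (edgeR adjusted p = 0.0052 and 0.024). The second call was lost without WT_Fe_Ov replicate 1 or 3 or WT_Ma_Te replicate 1, at -2.41 to -1.30. miR-15b-1-3p was at 51.8, 25.9 and 22.2 RPM in D120 MT_Fe_Ov, 22.3, 33.5 and 33.2 RPM in D120 WT_Fe_Ov and 175, 126 and 73.3 RPM in D120 WT_Ma_Te. It was lower by -1.40 ± 0.41 in MT_Fe_Ov and -1.51 ± 0.41 in WT_Fe_Ov (edgeR adjusted p = 0.020 and 0.013), and the first call was lost without MT_Fe_Ov replicate 2 or 3 or WT_Ma_Te replicate 1, at -1.84 to -1.17.

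The 3p arms of miR-15c, miR-16a and miR-16c were under the count minimum for genotype tests at D30. miR-16c-3p had 0 counts in all 6 D30 ovary libraries, against 7, 4 and 7 counts in D30 WT_Ma_Te, so that the testis was at least 3.11-fold higher than D30 WT_Fe_Ov at the floor of 3 counts per library. For D30 MT_Fe_Ov the floor lies above the testis level and sets no bound. miR-15c-3p had 0 counts in D30 WT_Fe_Ov and 0, 3 and 0 in D30 MT_Fe_Ov. Its mean in D120 WT_Fe_Ov, 14.1 RPM, was at least 2.97-fold higher than in D30 WT_Fe_Ov. miR-15a-2-3p had 0, 2 and 28 counts in D30 WT_Fe_Ov, and its call there as higher than at D10 rested on replicate 3, with a log2 fold change of 3.55 ± 1.12 with that library and 0.16 without it. In testis the same arm had 17, 10 and 12 counts in D30 WT_Ma_Te, against 1, 0 and 1 in D10 WT_Ma_Te. With 3 counts set for each D10 library, its D30 mean was at least 33.8-fold higher, the error of the D30 counts left aside. The D10 samples held the tissue around the primordium as well.

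Beside the members, 2 lists of other miRNAs tied to cell division were counted for comparison, those best known for restraining it (let-7, miR-34 and miR-449, 27 rows) and those of the growth-promoting miR-17 group (miR-17, miR-18, miR-19, miR-20, miR-25, miR-92, miR-93, miR-106 and miR-363, 33 rows). At D120 against WT_Ma_Te, the restraining list had 6 higher and 4 lower calls of 26 tested in MT_Fe_Ov (median 0.29) and 6 higher and 3 lower in WT_Fe_Ov (median 0.36). The promoting list had 0 higher and 5 lower calls of 28 in MT_Fe_Ov (median -0.43) and 0 higher and 6 lower in WT_Fe_Ov (median -0.50). Over all miRNAs 18.9% were higher and 17.2% lower in MT_Fe_Ov, and 21.2% and 16.9% in WT_Fe_Ov. With library totals only, the restraining list turned to medians of -0.22 and -0.21 with 1 higher and 6 lower calls in each, and the promoting list had 11 lower calls in MT_Fe_Ov (median -0.95) and 14 in WT_Fe_Ov (median -1.06). All miRNAs moved too, to medians of -0.52 in MT_Fe_Ov and -0.54 in WT_Fe_Ov. Of 344 tested, 34 were then called higher and 97 lower in MT_Fe_Ov, and 35 and 102 in WT_Fe_Ov.

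At D30 against WT_Ma_Te the restraining list had 9 higher and 1 lower calls of 22 in MT_Fe_Ov and 11 higher and 1 lower in WT_Fe_Ov, and the promoting list had 3 higher and 4 lower of 19 in MT_Fe_Ov and 1 higher and 8 lower in WT_Fe_Ov. All miRNAs were called higher in 13.6% and lower in 18% in MT_Fe_Ov, and in 16.4% and 30.4% in WT_Fe_Ov. With library totals the promoting list had 0 higher and 6 lower calls in MT_Fe_Ov and 0 higher and 7 lower in WT_Fe_Ov. Over all 250 miRNAs tested there were then 25 higher and 61 lower calls in MT_Fe_Ov, and 38 and 75 in WT_Fe_Ov. At D30 between MT_Fe_Ov and WT_Fe_Ov, 2 restraining rows were higher and 5 lower (median -0.87), or 2 and 8 with library totals. In the promoting list 2 rows were higher and 0 lower, or 0 and 0 with library totals. Over all miRNAs 18.8% were higher and 9.6% lower with TMM, and 41 of 250 were higher and 31 lower with library totals.

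The miRNAs outside the families whose group means were most like those of miR-16c-5p, among 388 compared, were miR-125b-5p (Pearson r = 0.952 over the 9 group means of log2(RPM + 1)), miR-30c-2-5p (r = 0.917) and miR-145-5p (r = 0.881). Over the 27 libraries the values were 0.824, 0.862 and 0.857. miR-145-5p, known from smooth muscle, averaged 9428 ± 3331 RPM in D120 MT_Fe_Ov, 7403 ± 1306 RPM in D120 WT_Fe_Ov and 12875 ± 3048 RPM in D120 WT_Ma_Te. These correlations share the libraries and their denominators and are a description.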

How the data were processed

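Medaka gonad RNA of 17 to 32 nucleotides was sequenced by the authors on an Illumina HiSeq instrument in 27 libraries. The deposited count of a mature miRNA is the number of its reads in a library, not normalized. The authors dropped short and low-quality reads, mapped the rest to ASM223467v1 with miRDeep2 and counted them on FishmiRNA entries. How reads matching several miRNAs were treated is not given in the sources used here. The deposited RPM values were made by the authors from these counts and the summed miRNA counts of each library (largest difference on recomputation 4.97e-05 RPM).

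Groups came from the sample labels. Rows reaching 10 counts in 3 or more of the libraries fitted went into edgeR 4.0.16 (quasi-likelihood F test, TMM, Benjamini-Hochberg over all tested, R 4.3.3), in the 9 libraries of a stage for genotypes and in all 27 for stages and interactions. Calls need an adjusted p no higher than 0.05 and a log2 fold change of 1 or more in size. SE is the log2 fold change over the square root of F. Other values and the plots were made with Python 3.11.15 (pandas 2.3.3, numpy 2.4.6, scipy 1.17.1, matplotlib 3.10.9).

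All 11 members are named, with the 3 miRNAs most like the most abundant one, and other lists are given as counts. The members, lists and tests were chosen with earlier results of these data known. Alternatives were DESeq2 1.42.0, RLE scaling, library totals, another count filter, an adjusted p of at most 0.01, no fold minimum, a replicate block, other sets of libraries, leaving out each library and, added after the data were seen, leaving out miR-202-5p. The code was tested on simulated counts. No replicate pair was alike within sampling noise (lowest chi-square per degree of freedom 27.0), so none is a repeat sequencing of another. Each library was taken as 1 biological replicate, as labelled, which this check cannot establish. Mature sequences and target predictions were not used here.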

Additional observations from a re-analysis of the deposited data

Results flagged for a closer look

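The results below are genotype differences that changed between stages by the interaction test of edgeR, as log2 values with the group named first over the second. No explanation was tested.

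For miR-457a-5p the difference of MT_Fe_Ov and WT_Fe_Ov changed by -2.13 from D10 to D30 and by 2.33 from D30 to D120, and that of MT_Fe_Ov and WT_Ma_Te by -3.25 and by 2.49. Its difference of WT_Fe_Ov and WT_Ma_Te changed by -1.11 from D10 to D30, a call that was lost in 10 of 27 leave-outs, with values of -1.55 to -0.72, and with RLE scaling (-0.81).

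For miR-15a-2-5p the difference to WT_Ma_Te changed from D10 to D30 by -1.79 in MT_Fe_Ov and by -1.97 in WT_Fe_Ov. For miR-15b-1-5p it changed by -2.46 in MT_Fe_Ov and by -2.91 in WT_Fe_Ov.

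The remaining values belong to rare 3p arms with 0 counts in a whole group at D30, so their size depends on the prior count of the fit and is no bound. For miR-16c-3p, at 0 in all D30 ovary libraries, the difference to WT_Ma_Te changed from D10 to D30 by -9.52 in MT_Fe_Ov and by -9.14 in WT_Fe_Ov, and from D30 to D120 by 6.90 in WT_Fe_Ov. For miR-15c-3p, at 0 in all D30 WT_Fe_Ov libraries, the difference of MT_Fe_Ov and WT_Fe_Ov changed by 7.38 from D10 to D30 and by -7.65 from D30 to D120, and that of WT_Fe_Ov and WT_Ma_Te by -6.77 and by 6.73. The 2 changes between the ovaries rest on 3 counts in D30 MT_Fe_Ov replicate 2, and without that library they were -0.11 and -0.16.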

How the results depend on the processing

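Of the 68 fold changes called for single members, 45 kept their direction and call under every alternative and leave-out, and the 3 D10 genotype counts and the D120 count between the ovaries stayed at 0. The number of members called between MT_Fe_Ov and WT_Fe_Ov at D30 was 1 in place of 2 at an adjusted p of at most 0.01, with RLE scaling, with library totals and by DESeq2. Against the D120 testis it was 8 with library totals in either ovary, and 2 for WT_Fe_Ov at an adjusted p of at most 0.01. With RLE scaling and by DESeq2 it was 3 for MT_Fe_Ov from D30 to D120 and 4 for WT_Ma_Te from D10 to D30. Interaction counts from D30 to D120 were 1 for MT_Fe_Ov and WT_Fe_Ov (adjusted p of at most 0.01), 2 for MT_Fe_Ov and WT_Ma_Te (no fold minimum, RLE, library totals, DESeq2), and 1, 4 and 5 for WT_Fe_Ov and WT_Ma_Te (adjusted p of at most 0.01, RLE, DESeq2). From D10 to D30 at that stricter p they were 1 for MT_Fe_Ov and WT_Fe_Ov and 3 for WT_Fe_Ov and WT_Ma_Te.

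Over the leave-outs the counts at D30 ran from 1 to 3 for MT_Fe_Ov against WT_Fe_Ov, 3 to 4 for MT_Fe_Ov against WT_Ma_Te and 3 to 4 for WT_Fe_Ov against WT_Ma_Te, and at D120 from 2 to 5 for MT_Fe_Ov and 2 to 4 for WT_Fe_Ov against WT_Ma_Te. From D30 to D120 they ran from 3 to 6 in MT_Fe_Ov, and from D10 to D30 from 4 to 8 in WT_Ma_Te. Interaction counts from D30 to D120 ran from 1 to 3, 1 to 2 and 1 to 4, and that of MT_Fe_Ov and WT_Fe_Ov from D10 to D30 from 1 to 3. Fold changes from D10 to D30 turned their sign without 1 library for miR-15b-1-3p in MT_Fe_Ov (-8.16 without D30 MT_Fe_Ov replicate 1, up to 2.71 in the other leave-outs) and miR-16a-3p in WT_Fe_Ov (-5.64 without D30 WT_Fe_Ov replicate 2, up to 3.65), neither of them called, and for the miR-15c-3p interaction of MT_Fe_Ov and WT_Fe_Ov (-0.11 without D30 MT_Fe_Ov replicate 2, up to 8.61). From D30 to D120 the uncalled miR-457a-5p interaction of WT_Fe_Ov and WT_Ma_Te (0.16) was -0.13 with RLE scaling and by DESeq2 and -0.015 with library totals, and ran from -0.087 to 0.61 over the leave-outs. The causes were not tested.

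Alternatives with miR-202-5p left out were added after the data were seen. In that TMM fit the interaction counts from D30 to D120 were 3 for MT_Fe_Ov and WT_Ma_Te and 6 for WT_Fe_Ov and WT_Ma_Te (4 with library totals), where miR-15c-5p (0.34) and miR-16c-5p (0.25) changed sign, and the D30 count of MT_Fe_Ov and WT_Fe_Ov was 1. The D120 counts against WT_Ma_Te stayed at 4 with TMM, and with library totals were 8 for MT_Fe_Ov and 4 for WT_Fe_Ov. The medians over all miRNAs with these totals were -0.52 and -0.10. The summed share was 3.05% in D30 WT_Ma_Te and 4.84% in D120 WT_Fe_Ov.

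Without the 5 most abundant miRNAs in the denominator the summed 5p share was 1.37, 1.51 and 1.74% in D10 MT_Fe_Ov, WT_Fe_Ov and WT_Ma_Te, 2.89, 3.32 and 4.55% at D30 and 7.38, 7.65 and 14.0% at D120. With TMM-scaled library sizes it was 0.897% in D10 MT_Fe_Ov, 2.45% in D30 WT_Ma_Te and 3.94% in D120 WT_Fe_Ov.

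Replicate numbers are shared between groups, but libraries of the same number did not deviate together (r of -0.25 to 0.20 over 27 pairs, 4 above 0.1), so they were not taken as pairs. With a replicate block the D120 count of WT_Fe_Ov against WT_Ma_Te was 3 and that of MT_Fe_Ov from D30 to D120 was 5, and the other member counts were unchanged. Depth limits the D30 MT_Fe_Ov values most, where rare 3p arms cannot be resolved.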
